A study of Mus musculus with 19 samples.

Results

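The genes of brain-derived neurotrophic factor (BDNF), its relatives and their receptors were followed in RNA of the striatum of 19 mice, of which 7 were WT and 4 each carried the KI-96, the KI-571 or the KI-FL allele. The 9 genes were listed by symbol for their roles, by a rule that uses no measured value, although earlier results of these data were known when the list was made. They are the neurotrophin ligands Bdnf and Ntf3, the Trk receptors Ntrk2 and Ntrk3, the p75 receptor Ngfr, the sortilin family receptors Sort1 and Sorcs2, the ligand Gdnf and its receptor Gfra1, out of 54232 genes counted. All mice were 6 months old and were labelled as C57/BL/6 in background. KI-FL mice were HD140Q knock-in mice, which express full-length mutant HTT with an expanded polyQ repeat from the mouse gene. In KI-96 and KI-571 mice that mutant allele was truncated by CRISPR-Cas9, so that N-terminal fragments of HTT are expressed, the shorter of them in KI-96 mice. The truncated lines were crossed with WT mice and were heterozygous, so that a WT copy of Htt was present beside the mutant allele. The study's methods name a single founder for KI-571 and several for KI-96. They do not say from which KI-96 founder the sequenced mice descend, and the labels do not give the zygosity of the sequenced mice.

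BDNF in the striatum is known to come mainly from the cortex. Cortical projection neurons make it, carry it along their axons with the help of huntingtin and release it onto striatal projection neurons, which carry the receptor TrkB. Neurotrophins are made as proneurotrophins, which bind p75 and the sortilin family, and the processed forms bind the Trk receptors. GDNF uses another route, through GFRα1 and the receptor RET. The comparisons below set each knock-in genotype beside WT for these genes, and separate genes whose RNA is made in the striatum from Bdnf, whose RNA is made mainly in the cortex.

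Striatal projection neuron RNA was abundant in every library. The summed level of 12 of its markers was between 5548 and 9386 CPM, where CPM is the read count relative to the library size after scaling by the TMM method. The 9 cortical excitatory neuron markers, among them the vesicular glutamate transporter Slc17a7, summed to between 39.3 and 1090 CPM. The mean log2 CPM over these 9 markers (the cortical score) was 5.31 in WT replicate 3 and 4.31 in KI-571 replicate 2, and lay between 0.066 and 2.59 in the other mice. KI-FL replicate 4 had 3186 tested genes with 0 counts, against 10 to 222 in the others, and KI-96 replicate 3 had 24.2% of its reads on no annotated gene, against 11.1% to 16.0%. Total counts were between 12669809 and 26388542 per mouse, so that 3 counts, taken as the floor, are at most 0.238 CPM in every mouse. Xist, which is expressed in female cells, was at least 9.79 log2 CPM in all 4 KI-96 mice and above 5 log2 CPM in 1 of 7 WT, 0 of 4 KI-571 and 1 of 4 KI-FL mice, so that sex is largely confounded with the KI-96 genotype.

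Before the comparisons, the levels of the genes were ordered per length of exon, since counts grow with gene length. In WT mice Sort1, a sorting receptor that carries proBDNF, was highest at 61.5 ± 6.80 CPM per kb (SD, n = 7). Ntrk2, which encodes TrkB, was at 32.8 ± 3.34 CPM per kb, and the lowest Sort1 value in WT mice was above the highest Ntrk2 value. Sorcs2 was at 11.8 ± 1.02 and Gfra1 at 10.3 ± 0.82 CPM per kb, and their ranges over WT mice overlapped. Ntrk3, the receptor of neurotrophin-3, was at 7.58 ± 1.08 CPM per kb, below Gfra1 in all 19 mice. Ngfr was at 4.29 ± 2.38, Gdnf at 1.62 ± 0.32, Bdnf at 0.32 ± 0.46 and Ntf3 at 0.087 ± 0.064 CPM per kb (SD, n = 7 in each), and neighbours from Ntrk3 to Ntf3 overlapped in their WT ranges. The SD of Bdnf exceeded its mean.

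**Figure D1:**
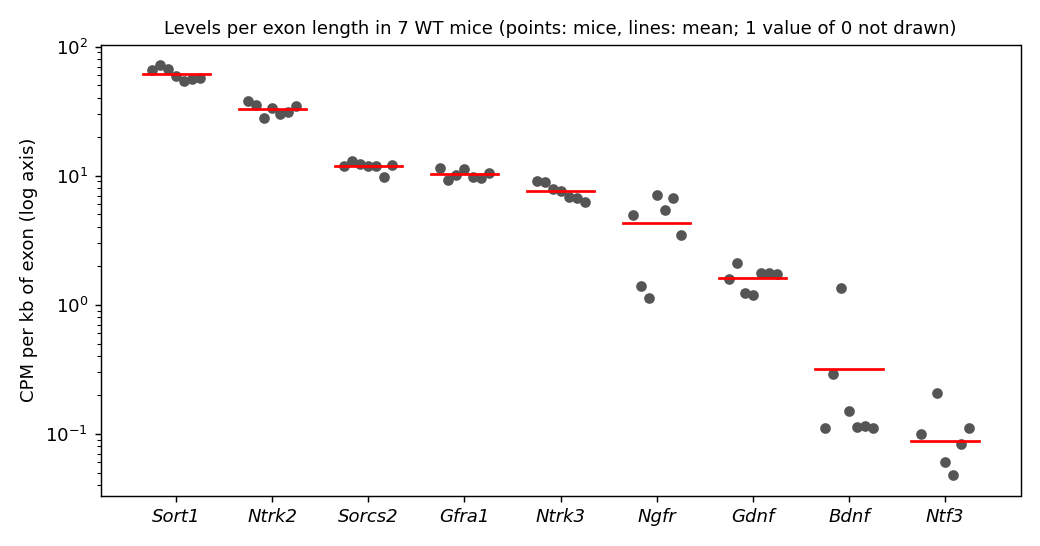
Levels of the 9 genes in the 7 WT mice as CPM per kb of exon, on a log axis, with a point for each mouse and a red line at the mean. Sort1 and Ntrk2 lie highest without overlap, the sets from Ntrk3 to Ntf3 overlap with their neighbours, and 1 Ntf3 value of 0 is not drawn.

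Bdnf (ENSMUSG00000048482.14) lies on chromosome 2 from 109674700 to 109727007 on the plus strand of GRCm38, with 9 exon blocks and 11 annotated transcripts. Of its 6217 exon bases, 896 are shared with the antisense gene Gm45346. The strand setting of the counting is not given in the sources used here. How reads on the shared bases were counted is therefore not known. RefSeq places 7 starts of Bdnf on GRCm38.p6. The 250 bases before each start were searched for the core of the cAMP response element, TGACG or its reverse complement CGTCA, which is bound by CREB, an activator of Bdnf in active neurons. This core was in 1 of the 7 windows of Bdnf and in 1 of the 2 windows of Gdnf, and in 17.8% of 32851 windows of the same length over all genes. The full element TGACGTCA was in none of the windows of the 6 of the 9 genes that matched the table, and in 1.55% of all windows. These windows are shown, 5′ to 3′ on the plus strand, because they belong to the 2 secreted factors whose RNA could be tested, with the core in capitals, at chr2:109692186-109692435 for Bdnf and chr15:7809798-7810047 for Gdnf.
Bdnf: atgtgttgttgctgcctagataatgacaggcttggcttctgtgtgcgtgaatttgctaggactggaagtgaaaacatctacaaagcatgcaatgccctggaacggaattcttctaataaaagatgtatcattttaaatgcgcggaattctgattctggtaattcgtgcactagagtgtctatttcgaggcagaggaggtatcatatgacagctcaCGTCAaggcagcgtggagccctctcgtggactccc
Gdnf: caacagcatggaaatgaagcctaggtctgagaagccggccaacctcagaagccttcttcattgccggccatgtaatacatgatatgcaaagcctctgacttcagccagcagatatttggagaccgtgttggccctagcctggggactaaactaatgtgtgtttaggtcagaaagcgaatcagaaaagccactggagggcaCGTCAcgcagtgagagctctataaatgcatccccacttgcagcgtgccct
The match is a description of these letters and not of binding.

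Bdnf counts were low and spread widely within each genotype. In WT mice they were 12 at the lowest, 18 at the median and 142 at the highest, the last in replicate 3. The KI-96 mice had 3, 12, 9 and 37 counts, the KI-571 mice 14, 75, 0 and 19, and the KI-FL mice 12, 1, 10 and 0. Only WT replicate 3 and KI-571 replicate 2 were above 37 counts, and all 4 genotypes overlapped. The mean level was 1.99 ± 2.85 CPM (SD, n = 7) in WT, 0.755 ± 0.567 CPM (SD, n = 4) in KI-96, 1.54 ± 1.99 CPM (SD, n = 4) in KI-571 and 0.345 ± 0.374 CPM in the KI-FL line (SD, n = 4). The spread of log2 CPM within genotypes was 1.51, larger than that of 99.5% of the genes tested. Genes were not matched for level in this ranking, and log2 CPM at 0 counts depends on the prior count added before the log.

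The log2 fold change of Bdnf against WT was -1.33 (standard error 0.94) in KI-96, -0.36 (standard error 0.89) in KI-571 and -2.45 (standard error 1.05) in KI-FL mice. In KI-FL mice the unadjusted p was 0.0293 and the adjusted p was 0.248 by edgeR's quasi-likelihood test (adjusted by the Benjamini-Hochberg method over 18521 genes), so that Bdnf did not pass 0.05. Adjusted p-values were 0.771 in KI-96 and 0.984 in KI-571 mice. Without WT replicate 3 the log2 fold change in KI-FL mice was -1.36 (adjusted p = 0.456), and without KI-FL replicate 4 it was -2.03 (adjusted p = 0.426), both by the same test. Against WT replicates 5 to 7 alone it was -0.97, and the values of the truncated lines were 0.14 for KI-96 and 1.13 for KI-571. For KI-96, Xist as a covariate moved the value to -0.45 from -1.33. Of the truncated lines, KI-96 was at -0.24 without WT replicate 3, and KI-571 ranged from -1.78 without KI-571 replicate 2 to 0.73 without WT replicate 3. A difference in Bdnf was not detected, and its values changed with single mice.

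Ntf3 (chromosome 6 from 126101412 to 126166910, minus strand), the gene of neurotrophin-3, was the 1 gene of the 9 that did not pass the filter on low counts and was not tested. It had 0 to 6 counts in WT mice with a median of 3, and 6, 0, 0 and 5 counts in the KI-96 line. The KI-571 mice had 1, 8, 6 and 1 counts, and all 4 KI-FL mice had 0 counts. With 3 counts as the floor, the 0 counts in KI-FL mice allow levels up to between 0.152 and 0.238 CPM, which overlaps the WT range of 0 to 0.354 CPM. This floor covers counting error only.

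Ntrk2 (chromosome 13 from 58806569 to 59133970, plus strand) had the most even level of the 9 genes. In WT mice it was 536 CPM at the lowest, 647 at the median and 727 at the highest. It was 686, 677, 689 and 562 CPM in KI-96, 691, 617, 613 and 595 CPM in KI-571 and 643, 618, 576 and 566 CPM in KI-FL mice. Every knock-in mouse lay inside the WT range. The log2 fold changes were 0.046 for KI-96, -0.0096 for KI-571 and -0.076 for KI-FL, each with a standard error of 0.096. Only 5.71% of the genes tested had a smaller spread within genotypes. Counts per gene do not separate the full-length TrkB receptor from its truncated form, which astrocytes also make. The mean log2 CPM of astrocyte markers was 0.22 lower in KI-FL than in WT mice (two-sided exact permutation p = 0.0212, adjusted p = 0.255), and its part in the Ntrk2 values was not tested.

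Ntrk3 (chromosome 7 from 78175959 to 78738012, minus strand), which encodes TrkC, was 188 CPM at the lowest, 229 at the median and 272 at the highest in WT mice. It was 235, 253, 327 and 159 CPM in KI-96, 267, 199, 212 and 172 CPM in KI-571 and 218, 220, 207 and 194 CPM in KI-FL mice. The highest and the lowest of the 19 mice were both KI-96 mice, replicates 3 and 4. WT replicates 1 to 4 were at 272, 267, 238 and 229 CPM, all above replicates 5 to 7 at 206, 201 and 188 CPM. Total counts were 23457270 to 26388542 in WT replicates 5 to 7 and 17281603 to 18945441 in WT replicates 1 to 4. The cause of this split was not tested. Log2 fold changes were 0.091 for KI-96, -0.10 for KI-571 and -0.12 for KI-FL, each with a standard error of 0.15.

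Ngfr (chromosome 11 from 95568818 to 95587735, minus strand) encodes p75, which in the basal forebrain marks cholinergic neurons. Among the 8 tested genes of the list only Bdnf had a larger spread of log2 CPM within genotypes than Ngfr. Of all genes tested, 85.3% had a smaller spread than Ngfr. Ngfr had 66 counts at the lowest, 310 at the median and 647 at the highest in WT mice. It had 319, 228, 206 and 387 counts in KI-96, 117, 71, 248 and 152 counts in KI-571 and 85, 155, 291 and 333 counts in KI-FL mice. As levels, these were 14.8 ± 8.19 CPM (SD, n = 7) in WT, 16.3 ± 4.95 (SD, n = 4) in KI-96, 7.90 ± 4.13 (SD, n = 4) in KI-571 and 13.6 ± 6.65 CPM in the KI-FL line (SD, n = 4). All genotypes overlapped, and the 2 lowest mice were WT replicate 3 and KI-571 replicate 2. The log2 fold change in KI-571 mice was -0.91 (standard error 0.44) with an unadjusted p of 0.0512 and an adjusted p of 0.652 by edgeR's quasi-likelihood test. It was -0.56 with the cortical score as a covariate. Values in KI-96 and KI-FL mice were 0.13 (standard error 0.42) and -0.12 (standard error 0.42).

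Sort1 (chromosome 3 from 108284082 to 108361511, plus strand) encodes sortilin, and 338 of its exon bases are shared with the antisense gene Gm12523. Its level was 410 CPM at the lowest, 446 at the median and 543 at the highest in WT mice, and between 399 and 569 CPM in the 12 knock-in mice. WT replicates 1 to 4, at 446 to 543 CPM, lay above WT replicates 5 to 7, at 410 to 431 CPM. Log2 fold changes of Sort1 were 0.087 for KI-96, 0.017 for KI-571 and -0.0035 for KI-FL, with a standard error of 0.11 in each.

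Sorcs2 (chromosome 5 from 36017180 to 36398139, minus strand) encodes SorCS2, a partner of p75 in binding proneurotrophins. It was 85.4 CPM at the lowest, 105 at the median and 114 at the highest in WT mice. It was 139, 117, 141 and 84.7 CPM in KI-96, 154, 128, 109 and 88.5 CPM in KI-571 and 142, 123, 132 and 115 CPM in KI-FL mice. All 4 KI-FL mice were above all 7 WT mice, while KI-96 and KI-571 mice overlapped with WT. Among all genes tested, 2.9% were higher and 2.38% lower in every KI-FL mouse than in every WT mouse. Of the 8 genes tested, 0 were apart from WT in this way in KI-96 mice, where 0.599% of all genes were higher and 0.643% lower, and 0 in KI-571 mice, where 0.88% were higher and 0.67% lower. The log2 fold change in KI-FL mice was 0.30 (standard error 0.13) with an unadjusted p of 0.0362 and an adjusted p of 0.267 by edgeR's quasi-likelihood test, so that it did not pass. In KI-96 and KI-571 mice it was 0.21 (standard error 0.14) and 0.21 (standard error 0.13). Leaving out single mice moved the KI-571 value from 0.059 without its replicate 1 to 0.33 without its replicate 4, and the KI-96 value from 0.12 without its replicate 3 to 0.35 without its replicate 4.

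Gdnf (chromosome 15 from 7810846 to 7837575, plus strand) encodes GDNF, which in the adult striatum is known to be made by interneurons. It was 4.36 CPM at the lowest, 6.38 at the median and 7.70 at the highest in WT mice. It was 6.85, 8.18, 5.75 and 5.50 CPM in KI-96, 6.72, 4.58, 6.63 and 5.69 CPM in KI-571 and 7.97, 5.94, 6.52 and 7.64 CPM in KI-FL mice. Mice of all genotypes overlapped. The log2 fold changes were 0.14 for KI-96, -0.013 for KI-571 and 0.23 for KI-FL, each with a standard error of 0.19.

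Gfra1 (chromosome 19 from 58235604 to 58455909, minus strand) encodes the receptor that binds GDNF, and 416 of its exon bases are shared with the antisense gene Gm16277. It was 50.7 CPM at the lowest, 55.4 at the median and 62.8 at the highest in WT mice. The KI-96 mice were at 76.0, 65.6, 77.0 and 53.5 CPM, and the KI-571 mice at 73.1, 59.4, 74.9 and 58.5 CPM. In KI-FL mice it was 52.4, 46.9, 66.9 and 51.4 CPM. Some mice of KI-96 and KI-571 lay above the WT range and others inside it. The log2 fold change was 0.27 (standard error 0.11, unadjusted p = 0.0234, adjusted p = 0.639 by edgeR's quasi-likelihood test) in KI-96 mice. It was 0.24 (standard error 0.11, unadjusted p = 0.0427, adjusted p = 0.611 by the same test) in KI-571 mice and -0.046 (standard error 0.11) in KI-FL mice. With Xist as a covariate the KI-96 value was 0.29. Between KI-96 and KI-FL mice the log2 fold change was 0.32 (standard error 0.13), with an unadjusted p of 0.0207 and an adjusted p of 0.497 by the same test.

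**Figure D2:**
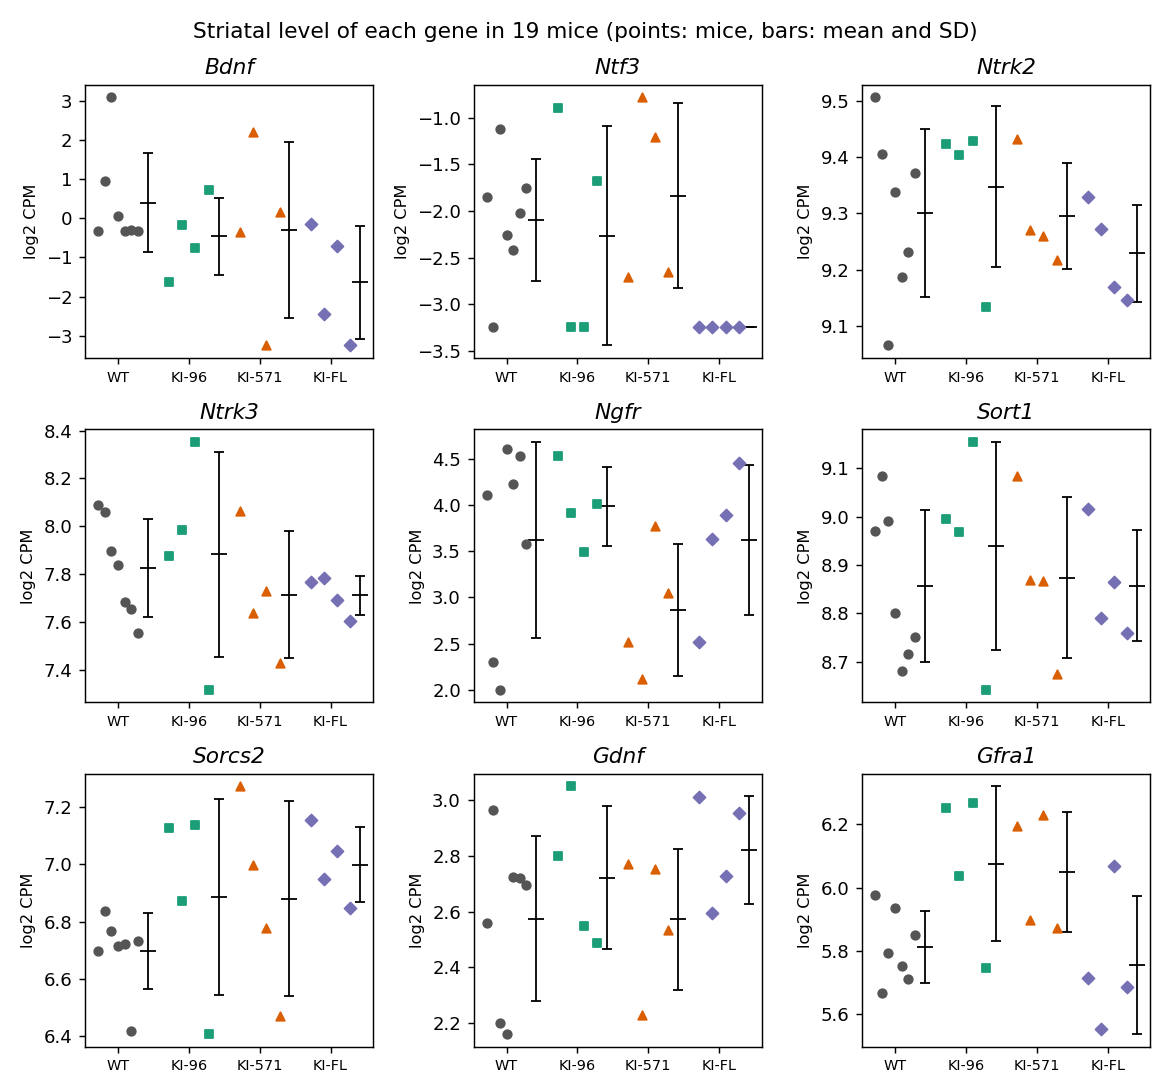
Log2 CPM of each of the 9 genes by genotype, with a point for each of 19 mice and the mean and SD at the right of each genotype. Bdnf and Ngfr spread widely within genotypes, all 4 KI-FL mice lie above the WT mice for Sorcs2, and the lowest drawn level of Bdnf and Ntf3 stands for 0 counts.

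Of the 9 genes, 8 were tested, and 0 passed an adjusted p of 0.05 by edgeR's quasi-likelihood test against WT in any of the knock-in genotypes (KI-96, KI-571, KI-FL), where 0.027%, 0.0324% and 0.194% of all genes tested passed. Without adjustment, 1, 1 and 2 of the 8 had a p-value under 0.05, against 7.45%, 7.72% and 16.7% of all genes. In the mean of the 3 knock-in genotypes against WT 0 of the 8 passed, against 0.054% of all genes. Sorcs2 alone of the 8 had an unadjusted p under 0.05 there, as did 12.9% of all genes, with a log2 fold change of 0.24 (standard error of 0.10, adjusted p = 0.342 by edgeR). Between KI-96 and KI-FL, KI-571 and KI-FL, and KI-96 and KI-571 mice 0 of the 8 passed as well, against 0%, 0.0864% and 0.0054% of all genes, with 1 of the 8 at an unadjusted p under 0.05 in each, beside 8.9%, 8.9% and 5.51% of all genes. These were Gfra1 in both comparisons with KI-FL and Ngfr in the last. DESeq2 also called 0 of the 8 in all 7 comparisons. The median log2 fold change over the 8 was 0.11 in KI-96, -0.011 in KI-571 and -0.061 in KI-FL mice, beside -0.015, -0.0089 and -0.028 over all genes tested. These comparisons share the same 7 WT mice. The calls over all genes changed with single mice. For KI-FL they numbered 36, but 0 without WT replicate 1 and 159 without KI-96 replicate 3. For KI-571 they numbered 6, but 0 without WT replicate 3 and 46 without KI-571 replicate 3, and for KI-96 they ran from 1 to 10 in place of 5.

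**Figure D3:**
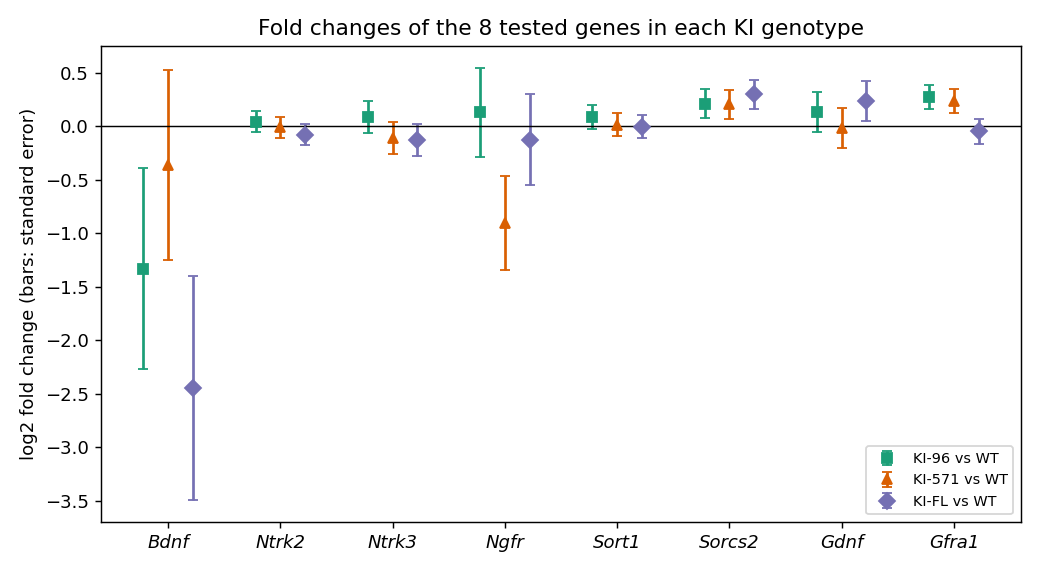
Log2 fold changes of the 8 tested genes in each knock-in genotype against WT, with standard errors as bars. Bdnf at -2.45 in KI-FL mice has the largest size and a standard error of 1.05, and none of the 24 values passed the adjusted threshold.

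The second question was which of these RNAs varied with cortical RNA in the striatal samples. Log2 CPM of the 8 tested genes was correlated over the 19 mice with the cortical score and with the mean of 12 striatal projection neuron markers (the striatal score), which makes 16 relations. In bulk tissue, fewer cells of a type and less RNA per cell cannot be told apart. Bdnf had a Pearson r of 0.76 with the cortical score (permutation p = 2e-04, adjusted p = 0.00208) and a Spearman rho of 0.57 (permutation p = 0.0117, adjusted p = 0.0625). After the mean of each genotype was subtracted, r was 0.81 and rho 0.76 (adjusted permutation p = 0.00032 and 0.004). Here and below, values with genotype means subtracted were permuted freely over all mice. Their p-values are therefore approximate and may be too small. Without WT replicate 3 and KI-571 replicate 2, the mice farthest from the median score, r was 0.49 (adjusted permutation p = 0.108), so that the relation rests in part on those mice. Among the 7 WT mice r was 0.95 and rho 0.39, with adjusted permutation p of 0.143 and 0.633. With the striatal score Bdnf had an r of -0.22 (adjusted permutation p = 0.584).

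Bdnf did not keep a fixed ratio to Slc17a7. Per 1000 counts of Slc17a7, WT mice had 10.2 counts of Bdnf at the lowest, in replicate 3, 29.1 at the median and 74.4 at the highest, in replicate 4, whose 18 Bdnf counts stood beside 242 of Slc17a7. KI-96 mice had 36.6, 24.9, 21.3 and 16.9, KI-571 mice 18.6, 13.6, 0 and 17.5, and KI-FL mice 30.2, 2.15, 5.68 and 0 on the same scale. In WT replicate 3 and KI-571 replicate 2, the mice with most Slc17a7 (13875 and 5523 counts), Bdnf was highest in counts, while its ratio was the lowest of its genotype in the first and below that of both other KI-571 mice with Bdnf counts in the second. The log2 fold change of Bdnf with the cortical score as a covariate was -1.35 in KI-FL mice (adjusted p = 0.333 by edgeR's quasi-likelihood test). The cortical score itself was 2.06 in WT, 1.51 in KI-96, 2.55 in KI-571 and 1.41 in KI-FL mice on average. A difference of these means from WT was not detected in any knock-in genotype (two-sided exact permutation tests over 330 splits, p = 0.636, 0.655 and 0.536, adjusted p = 0.780 in each over 12 tests). Without WT replicate 3 the differences from WT were -0.0082 for KI-96, 1.03 for KI-571 and -0.10 for KI-FL, where they had been -0.55, 0.49 and -0.65. The part of cortical RNA in the values of Bdnf was not tested beyond these values.

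Ngfr ran opposite to Bdnf. Its Pearson r with the cortical score was -0.72 (permutation p = 0.00026, adjusted p = 0.00208) and its Spearman rho -0.69 (adjusted permutation p = 0.0116), with -0.70 for r after the genotype means were subtracted. Without the same 2 mice r was -0.50 (adjusted permutation p = 0.108), and within WT mice alone it was -0.86 (adjusted permutation p = 0.0444). Among marker lists added after the data had been seen, in 24 further relations, Ngfr had an r of 0.71 with cholinergic neuron markers such as Chat (adjusted permutation p = 0.00664) and of -0.72 with choroid plexus markers such as Ttr (adjusted permutation p = 0.00664). Without the 2 mice farthest from the median of each list, these were 0.68 and -0.72, and the rho values over 19 mice were 0.74 and -0.67 (adjusted permutation p = 0.00576 and 0.0174). Bdnf had an r of 0.48 with the choroid plexus list (adjusted permutation p = 0.112) and a rho of 0.62 (0.031). KI-571 replicates 4 and 2 were farthest from the median of that list. Without them r was 0.37 (adjusted permutation p = 0.398) and rho 0.52 (0.192), and neither passed. Over all 19 mice with genotype means subtracted, r was 0.73 (adjusted permutation p = 0.00352) and rho 0.69 (0.0182). The choroid plexus list summed to between 35.6 and 5312 CPM over the 19 mice, and the cholinergic list to between 80.4 and 153 CPM.

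Gdnf was the 1 gene of the 8 that passed with the striatal score over all 19 mice. Its Pearson r was 0.66 (permutation p = 0.00223, adjusted p = 0.0119) and its rho 0.77 (adjusted permutation p = 0.00256), and without KI-96 replicates 3 and 4, the mice farthest from the median, r was 0.73. With the cortical score Gdnf had an r of -0.50 that did not pass (adjusted permutation p = 0.109). This r was -0.69 without WT replicate 4 (adjusted permutation p = 0.0112), -0.53 without KI-96 replicate 3 (adjusted permutation p = 0.0451) and -0.0026 without WT replicate 3 and KI-571 replicate 2. Ntrk2, Ntrk3, Sort1 and Sorcs2 had r between 0.21 and 0.41 with the striatal score and between -0.34 and 0.13 with the cortical score, and 0 of these 8 values passed. Without KI-96 replicate 3, the library with the largest share of reads on no gene, each of these 4 genes passed with the striatal score, at r of 0.64 for Ntrk2, 0.66 for Ntrk3, 0.70 for Sort1 and 0.62 for Sorcs2 (adjusted permutation p = 0.0121, 0.00848, 0.00484 and 0.0141). Without KI-96 replicate 4 r was instead 0.32, 0.024, 0.21 and 0.23 in the same order, the lowest with any mouse left out, and none passed. Over all 19 mice Gfra1 was at -0.020 with the striatal score and -0.10 with the cortical score. These points share the library normalization, so that the relations are not independent of each other.

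**Figure D4:**
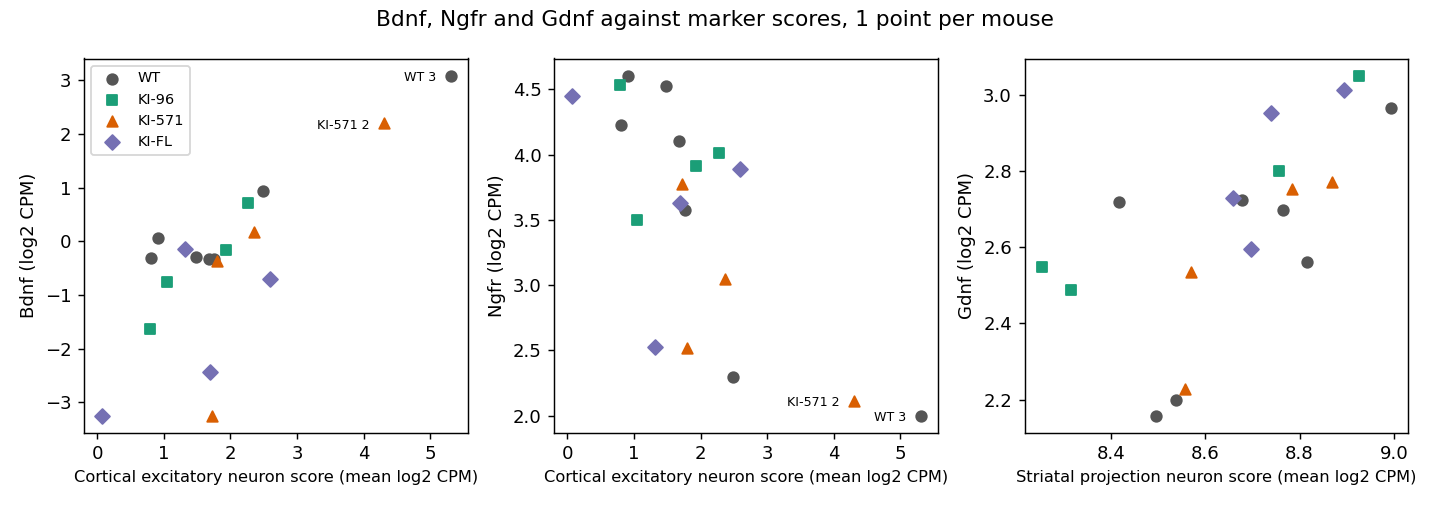
Log2 CPM of Bdnf and Ngfr against the cortical excitatory neuron score and of Gdnf against the striatal projection neuron score, with a point for each mouse and colours and shapes for genotypes. WT replicate 3 and KI-571 replicate 2, at scores of 5.31 and 4.31, hold the highest Bdnf and the lowest Ngfr levels.

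The genes also varied with each other. Over all 28 pairs of the 8 tested genes, compared after the data had been seen and with genotype means subtracted, the highest Pearson r was 0.90 between Ntrk3 and Sort1 (permutation p = 1e-05, the smallest that 100000 resamples can give, adjusted p = 0.00014), with a rho of 0.87 (adjusted permutation p = 0.00028). Sort1 and Sorcs2 had an r of 0.83 (adjusted permutation p = 0.00014) and a rho of 0.80 (7e-04). Ntrk3 and Sorcs2 had an r of 0.77 (adjusted permutation p = 0.00154) and a rho of 0.57 (0.0406). Ntrk2 joined these 3 with r of 0.65, 0.60 and 0.59 for Ntrk3, Sort1 and Sorcs2. Without the 2 mice farthest from the median of the first gene of each pair, these 6 values were between 0.61 and 0.86. Pairs over all genes tested were not examined. Genes outside the list were closer still to Ntrk2, Ntrk3, Sort1 and Sorcs2, as given below, so that such values are not particular to these genes. KI-96 replicate 3 was highest and KI-96 replicate 4 lowest of the 19 mice for Ntrk3 and Sort1. Bdnf and Ngfr had an r of -0.75 (adjusted permutation p = 0.00154) and a rho of -0.68 (0.00969), and an r of -0.64 without the 2 mice farthest from the Bdnf median (adjusted permutation p = 0.028). Among the added lists, GABA interneuron markers such as Pvalb and Sst ran opposite to Sort1 (r = -0.74), Ntrk3 (r = -0.67) and Sorcs2 (r = -0.65), with adjusted permutation p of 0.00192, 0.0106 and 0.0106. Without KI-571 replicate 1 and KI-96 replicate 3, the mice farthest from the median of that list, these were -0.62, -0.46 and -0.45 and no longer passed (adjusted permutation p = 0.0806, 0.345 and 0.345). Gdnf did not rise with these interneuron markers over the 19 mice. Its r was -0.24 (adjusted permutation p = 0.482) and its rho -0.40 (0.243), and neither passed.

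**Figure D5:**
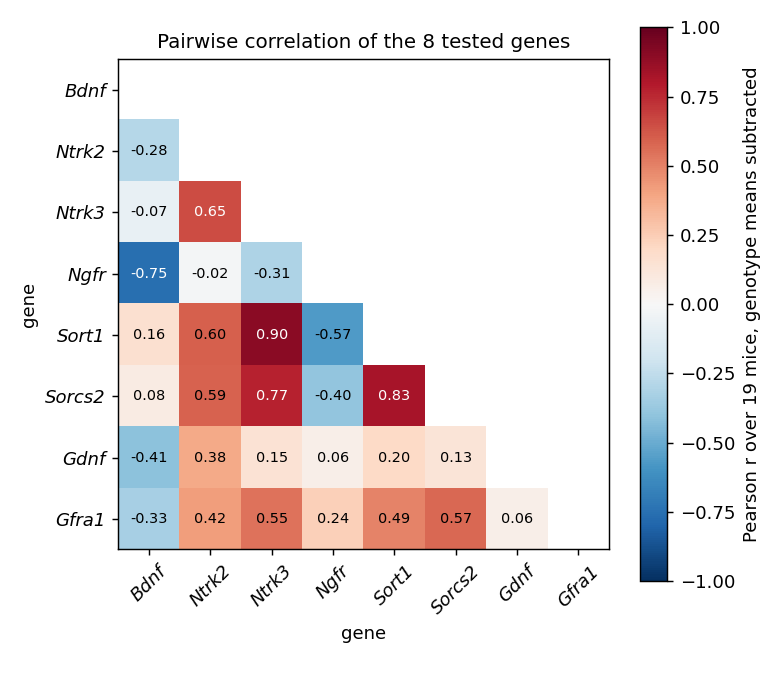
Pearson r over 19 mice for each pair of the 8 tested genes after genotype means were subtracted, with the value in each cell and colour from blue for -1 to red for 1. Ntrk2, Ntrk3, Sort1 and Sorcs2 form a block of values from 0.59 to 0.90, and Bdnf and Ngfr stand at -0.75.

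Across all genes tested, those most like Bdnf over the 19 mice with genotype means subtracted were led by Slc30a3 (r = 0.90), which encodes a zinc transporter of synaptic vesicles in cortical glutamatergic neurons. It was followed by Fap (r = 0.87), Gm2464 (r = 0.85), Igfn1 (r = 0.85), Podn (r = 0.85), Gm13306 (r = 0.83), Catsperz (r = 0.83) and Serinc2 (r = 0.82). Without WT replicate 3 the r of Slc30a3 was 0.87 and its rank 3. Of the cortical markers, Neurod2 (r = 0.81), Slc17a7 (r = 0.79) and Tbr1 (r = 0.77) ranked 10, 16 and 24 of the genes tested in likeness to Bdnf. The genes most like Ntrk2 were Snx27, Smad4 and Ripor2 (r between 0.87 and 0.90), and those most like Ntrk3 were Pde4dip, Cacna1e and Ank3 (r between 0.94 and 0.95). For Ngfr they were Atp6v1c2, Dgkk and Zcchc12, all with an r of 0.90 to 0.91. Sh3rf3 and Kbtbd11 were among the genes most like Sort1 (r between 0.92 and 0.93), and Sptb, Mbtps1 and Itpr1 most like Sorcs2 (r between 0.90 and 0.92). Zswim6, Zfp41 and Ncbp1 were most like Gdnf (r between 0.79 and 0.81), and Cds2, Tada2b and Slc2a3 most like Gfra1 (r between 0.84 and 0.86). These r values are the highest of many and are given as descriptions.

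Around these genes, 83 genes of the pathway were listed by role, from the processing enzymes of proneurotrophins to Trk adaptors, huntingtin-linked transport and TrkB-responsive genes, and 80 were tested. By edgeR's quasi-likelihood test 0 of the 80 passed against WT in any of the knock-in genotypes, and 9 (KI-96), 6 (KI-571) and 13 (KI-FL) had an unadjusted p under 0.05, against 7.45%, 7.72% and 16.7% of all genes. Their median log2 fold changes were 0.018, -0.0086 and 0.021. Of the 12 TrkB-responsive genes, such as Arc, Egr1 and Fos, which neuronal activity and TrkB signaling induce, 4 were above 0 in KI-96, 3 in KI-571 and 2 in KI-FL mice on the log2 fold change scale, and 0 passed. Over all genes tested, 47.2%, 48.3% and 46.1% were above 0 in the same comparisons.

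Furin, the protease that cuts proneurotrophins to their mature form, had the smallest p of the 80 in the mean of the knock-in genotypes against WT. It was at 31.9 ± 3.39 CPM (SD, n = 7) in WT, 37.1 ± 4.19 (SD, n = 4) in KI-96, 38.5 ± 2.72 (SD, n = 4) in KI-571 and 40.3 ± 1.44 CPM in the KI-FL line (SD, n = 4), and its log2 fold change in that comparison was 0.28 (standard error 0.072, adjusted p = 0.112 by edgeR's quasi-likelihood test). With DESeq2 its adjusted p was 0.0263 there and 0.0472 in KI-FL mice. Ptpn11, a phosphatase that couples Trk receptors to the Ras route, had there a log2 fold change of 0.22 (standard error of 0.071, adjusted p = 0.193 by edgeR's quasi-likelihood test). Htt itself was at 178 ± 9.80 CPM (SD, n = 7) in WT, 186 ± 40.1 (SD, n = 4) in KI-96, 124 ± 15.3 (SD, n = 4) in KI-571 and 158 ± 17.5 CPM in the KI-FL line (SD, n = 4). Its log2 fold change in KI-571 mice was -0.53 (standard error 0.11, adjusted p = 0.0959 by edgeR's quasi-likelihood test), which did not pass, and with DESeq2 the adjusted p was 0.00863. Counts per gene do not separate the mutant allele of Htt from the WT allele.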

How the data were processed

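RNA from the striatum of 19 mice was sequenced. The deposited values are the authors' counts of reads for each gene before any normalization, made by trimming with BBduk, alignment to GRCm38 with STAR and counting with HTSeq. Tool versions, gene annotation and strand setting are not given in the sources used here. Genotypes were taken from the labels, which give no sex and no sacrifice batch. The study fitted that batch and removed a WT sample that its text does not name, so that all 7 WT mice were kept and no batch term was fitted. The deposited table also holds 4 columns marked to be disregarded and 5 summary lines, which were not used. Of 54232 gene IDs, 54079 were matched to symbols without their version. Positions were taken from GENCODE for GRCm38 and promoter windows from RefSeq for GRCm38.p6.

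Genes were filtered by filterByExpr (minimum count 10, minimum total 15), which kept 18521, and normalized by TMM. All 19 mice were fitted together with edgeR 4.0.16 with a coefficient for each genotype. The quasi-likelihood F-test was used with Benjamini-Hochberg adjustment and a threshold of 0.05. The standard error is the fold change divided by the square root of F and is approximate. The biological coefficient of variation was 0.240. Log2 CPM used a prior count of 2, and the lowest level, at 0 counts, depends on it. Marker scores were compared by two-sided exact permutation tests, and correlations by two-sided permutation tests with 100000 resamples, adjusted within each family. The replicates are separate mice, and pairs within a genotype differed by more than sampling noise (chi-square per degree of freedom at least 7.78). All 9 genes were named, with Htt, the 2 pathway genes of smallest p in the mean knock-in comparison, since none passed, and the genes most like each tested gene, of which some are not reported here. The 9 genes and the lists were set by name, with earlier results of these data known. The fitting was tested on simulated data. Alternatives were DESeq2 1.42.0, other scaling, filters, sample sets, covariates, a replicate block and each mouse left out.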

Additional observations from a re-analysis of the deposited data

Results flagged for a closer look

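In 48 groups of 4 to 7 mice of a genotype, a mouse lay far from the others in 5, by Dixon's criterion on the share of the range taken by its gap, where chance gives about 2. Bdnf in WT replicate 3 was at 3.08 log2 CPM, against -0.33 to 0.94 in the other WT mice. The cortical excitatory neuron score of the same mouse was 5.31, against 0.81 to 2.49, and its cholinergic neuron score was 3.79, against 4.29 to 4.62. Sorcs2 in WT replicate 6 was at 6.42 log2 CPM, against 6.70 to 6.84 in the other WT mice. Ntrk2 in KI-96 replicate 4 was at 9.13 log2 CPM, while the other mice of the genotype lay between 9.40 and 9.43.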

How the results depend on the processing

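Of the 8 tested genes, 0 passed in each of the 7 comparisons under every alternative, in 209 counts over comparisons and alternatives. Of 717 fold changes of these genes, 662 kept their sign and 0 passed. The cause of the changes below was not tested. Values are log2 fold changes that changed sign. WT replicates 5 to 7 alone gave 0.14 (KI-96) and 1.13 (KI-571) for Bdnf, -0.13 for Ngfr (KI-96), 0.032 for Ntrk2 (KI-571), 0.10 (KI-571) and 0.082 (KI-FL) for Ntrk3 and 0.14 for Sort1 (KI-FL). WT replicates 1 to 4 alone gave 0.084 for Gdnf (KI-571), 0.11 for Ngfr (KI-FL), -0.046 for Ntrk3 (KI-96) and -0.084 (KI-571) and -0.014 (KI-96) for Sort1. Of 24 same-numbered pairs of mice, 5 had a correlation of deviations above 0.1. Differently numbered pairs were not examined, so that this cannot decide whether the replicate numbers pair the mice. The replicate block gave 0.10 for Gdnf (KI-571), 0.25 for Ngfr (KI-FL), -0.072 for Ntrk3 (KI-96) and -0.089 (KI-571) and -0.021 (KI-96) for Sort1, and changed no call of the 8 genes. The cortical score as covariate gave 0.026 for Gdnf and 0.012 for Ntrk2 (KI-571) and 0.012 for Sort1 (KI-FL), and Xist gave -0.046 for Ntrk2 and -0.055 for Ntrk3 (KI-96). Without the 2 mice of highest cortical score, a choice made after seeing the data, Gdnf was at 0.036 (KI-571), Ngfr at -0.035 (KI-96) and Sort1 at 0.0091 (KI-FL). With each mouse left out in turn, log2 fold changes that changed sign ranged from -1.78 to 0.73 for Bdnf (KI-571), -0.084 to 0.090 for Gdnf (KI-571), -0.17 to 0.018 for Gfra1 (KI-FL), -0.078 to 0.29 (KI-96) and -0.44 to 0.12 (KI-FL) for Ngfr, -0.060 to 0.028 for Ntrk2 (KI-571), -0.088 to 0.25 for Ntrk3 (KI-96) and -0.060 to 0.079 (KI-571) and -0.071 to 0.037 (KI-FL) for Sort1, and score differences from -0.027 to 0.21 (cholinergic, KI-96), -0.10 to 1.03 (cortical, KI-571) and -0.035 to 0.077 (striatal, KI-571). Of the correlations, r with the cortical score without the 2 farthest mice was 0.49 for Bdnf, -0.50 for Ngfr and 0.0029 for Ntrk2, in WT mice alone 0.95 for Bdnf, 0.30 for Ntrk3 and 0.32 for Sorcs2, and with genotype means subtracted 0.0078 for Sorcs2. With the striatal score it was 0.62 for Gdnf in WT mice alone, 0.16 for Gfra1 without 2 mice, and with genotype means subtracted 0.15 for Gfra1 and 0.56 for Ntrk2. This value of Ntrk2 passed narrowly (adjusted permutation p = 0.0496), with the limit given above for such p-values. With each mouse left out r ranged from -0.69 to -0.33 (Gdnf) and -0.19 to 0.026 (Ntrk3) with the cortical score, and from -0.11 to 0.22 (Gfra1), 0.32 to 0.64 (Ntrk2), 0.024 to 0.66 (Ntrk3), 0.23 to 0.62 (Sorcs2) and 0.21 to 0.70 (Sort1) with the striatal score. Pathway genes that passed numbered 1 for KI-571 (Htt) with DESeq2, with no filter and with only the genotypes compared, 2 for KI-FL (Furin among them) and 1 for the mean knock-in (Furin) with DESeq2, and 0 to 1 with each mouse left out (Htt without KI-96 replicate 3, Crtc1 without KI-571 replicate 4). Over all genes, DESeq2 called 28 against WT for KI-96, 102 for KI-571, 509 for KI-FL and 272 for the mean knock-in, where edgeR called 5, 6, 36 and 10, and the replicate block called 0, 1, 0 and 0. Depth limits what can be seen of Bdnf, at 0 to 37 counts in all but WT replicate 3 and KI-571 replicate 2.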
